A study of Mus musculus with 12 samples.

Results

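The growth hormone and STAT5 axis was followed through 10 genes of mouse liver: Ghr, Igf1, Igfals, Socs2, Cish, Stat5a, Stat5b, Bcl6, Elovl3 and Hsd3b5. They were chosen by gene symbol from a table of 55903 genes, and each symbol matched a single row. The rule uses symbols only, with no threshold on a measured value, but the genes were put forward with earlier results of these data known. All 10 had a mean abundance of at least 1 TPM (a length-corrected transcript level scaled to a fixed total in each library) and so entered every test. Liver RNA was sequenced in 12 libraries, 4 in each of 3 groups. The young control group carries neither doxo nor a compound in its labels. A second group is titled an aged control while its description reads doxo, an abbreviation the labels leave unexplained, and it is called aged/doxo here because they do not settle which is meant. The third group, called treated here, is labelled with KSL0608-Se, a code name, together with doxo, so doxo is shared by the aged/doxo and treated groups. The labels state no strain, sex, age in weeks or months, dose, feeding state or time of collection. Nothing states that the 4 libraries of a group came from separate animals, so the p-values below measure the spread between libraries, which may be partly technical.

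Growth hormone from the pituitary binds its receptor on hepatocytes, and the receptor-bound kinase JAK2 phosphorylates STAT5A and STAT5B, which pair, enter the nucleus and bind DNA sites of the form TTCNNNGAA. In liver the pathway drives Igf1 and Igfals, whose products circulate together with an IGF-binding protein, and the rapid feedback inhibitors Cish and Socs2. STAT5 activity also lowers transcription of Bcl6, a repressor that can occupy STAT5 sites. Male rodents secrete growth hormone in pulses, and genes such as Elovl3 and Hsd3b5 are known for higher expression in male liver, which depends on that pattern.

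Promoter sequences are shown for Cish, Bcl6 and Igfals, the 3 genes whose promoter windows held the form TTCNNNGAA, with a single window shown for each. Genes without a match, such as Ghr, are not shown, and no relation of the matches to transcript levels was tested. RefSeq promoter windows on GRCm38.p6, from 250 bases before to 50 bases after an annotated start, were matched by symbol for 8 of the 10 genes, giving 14 windows. The form TTCNNNGAA, which is its own reverse complement, was present in 5 of the 14 windows, belonging to Cish, Bcl6 and Igfals, against 8.30% of all 32851 windows of this length. Each sequence is given 5' to 3' on the gene's strand with the matches in capitals. These are the windows at chr9:107296409-107296708, plus strand, for Cish, chr16:23981234-23981533, minus strand, for Bcl6, and chr17:24877981-24878280, plus strand, for Igfals.
Cish: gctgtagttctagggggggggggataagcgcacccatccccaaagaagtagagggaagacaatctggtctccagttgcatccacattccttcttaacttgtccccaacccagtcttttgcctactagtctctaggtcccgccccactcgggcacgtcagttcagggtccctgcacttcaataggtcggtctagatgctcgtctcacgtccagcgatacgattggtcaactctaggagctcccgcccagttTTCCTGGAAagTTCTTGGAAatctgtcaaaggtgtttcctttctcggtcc
Bcl6: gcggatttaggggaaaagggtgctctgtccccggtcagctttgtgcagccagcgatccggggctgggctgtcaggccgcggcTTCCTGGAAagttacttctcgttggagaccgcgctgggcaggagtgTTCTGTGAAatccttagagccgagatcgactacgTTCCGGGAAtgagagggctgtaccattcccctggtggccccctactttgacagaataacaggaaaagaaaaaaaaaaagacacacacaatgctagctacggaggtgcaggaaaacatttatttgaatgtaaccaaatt
Igfals: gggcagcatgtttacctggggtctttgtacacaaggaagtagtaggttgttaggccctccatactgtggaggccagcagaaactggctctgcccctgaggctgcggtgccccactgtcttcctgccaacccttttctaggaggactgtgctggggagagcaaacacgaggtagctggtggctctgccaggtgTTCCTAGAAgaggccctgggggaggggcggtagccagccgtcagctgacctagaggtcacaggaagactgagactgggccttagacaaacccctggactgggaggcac
The Cish window held 2 matches, beginning at bases 251 and 262 of the window, so just after the annotated start. This Bcl6 window held 3, beginning at bases 83, 129 and 163. The other Bcl6 window, at chr16:23988803-23989102, held 1, beginning at base 133. Of all windows 0.0335% held 3 or more, a share over single windows that does not allow for showing the richer Bcl6 window. In the Igfals window the single match began at base 193, and the other Igfals windows held 1 and 0 matches. These matches describe letters in a window and no binding was measured.

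Libraries differed in quality measures that matter below. They held 9568 to 11023 genes at 1 TPM or more, and mitochondrially encoded transcripts made up 8.10% to 12.4% of the total except in aged/doxo library 2, where they made up 27.6%. The summed level of 9 hepatocyte markers was 42014 TPM in that library and 48942 TPM in young control library 1, against 63575 to 76413 TPM in the other 10, so the tissue label was borne out but these libraries stood apart. The slope of log expression on gene length was steepest in the same pair and in aged/doxo library 4 (-0.47, -0.47 and -0.45, against -0.39 to -0.23 elsewhere). Summed markers of Kupffer cells ran from 171 to 305 TPM in young control, 67.9 to 450.0 TPM in aged/doxo and 176 to 261 TPM in treated libraries, and those of sinusoidal endothelium from 43.2 to 93.3, 43.2 to 107 and 65.1 to 126 TPM. Erythroid marker sums were 836 to 1991, 1839 to 2568 and 846 to 1778 TPM in the same order. None of the marker genes of these types, or of stellate cells, cholangiocytes and lymphocytes, was at 0 in all libraries of a group. In bulk liver, fewer cells of a type and less RNA per cell cannot be told apart. Male-specific Ddx3y was present at 4.69 to 8.67 TPM and Xist at no more than 0.01 TPM in all 12 libraries.

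The 10 genes spanned a wide range of levels, with Igf1, Elovl3, Ghr and Hsd3b5 far above the Stat5 genes, Bcl6 and the feedback inhibitors. Per-length levels averaged over all libraries ran from Igf1 at 514.6 TPM, which ranked 213 among all genes, through Elovl3 (403 TPM), Ghr (228 TPM), Hsd3b5 (206 TPM) and Igfals (44.8 TPM) to Stat5b (10.7 TPM), Bcl6 (7.53 TPM), Cish (3.74 TPM), Stat5a (3.07 TPM) and Socs2 (2.62 TPM). Only Igfals and Stat5b, of all neighbours in that order, had ranges that did not meet, with 22.5 TPM as the lowest Igfals value and 15.95 TPM as the highest of Stat5b. Elovl3 exceeded Ghr, and Hsd3b5 exceeded Igfals, in all 12 libraries, whereas Igf1 exceeded Elovl3 in 8 and Bcl6 exceeded Cish in 7. The plot of TPM by group shows how much more Cish and Bcl6 scattered, relative to their level, than Igf1 and Ghr.

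**Figure D1:**
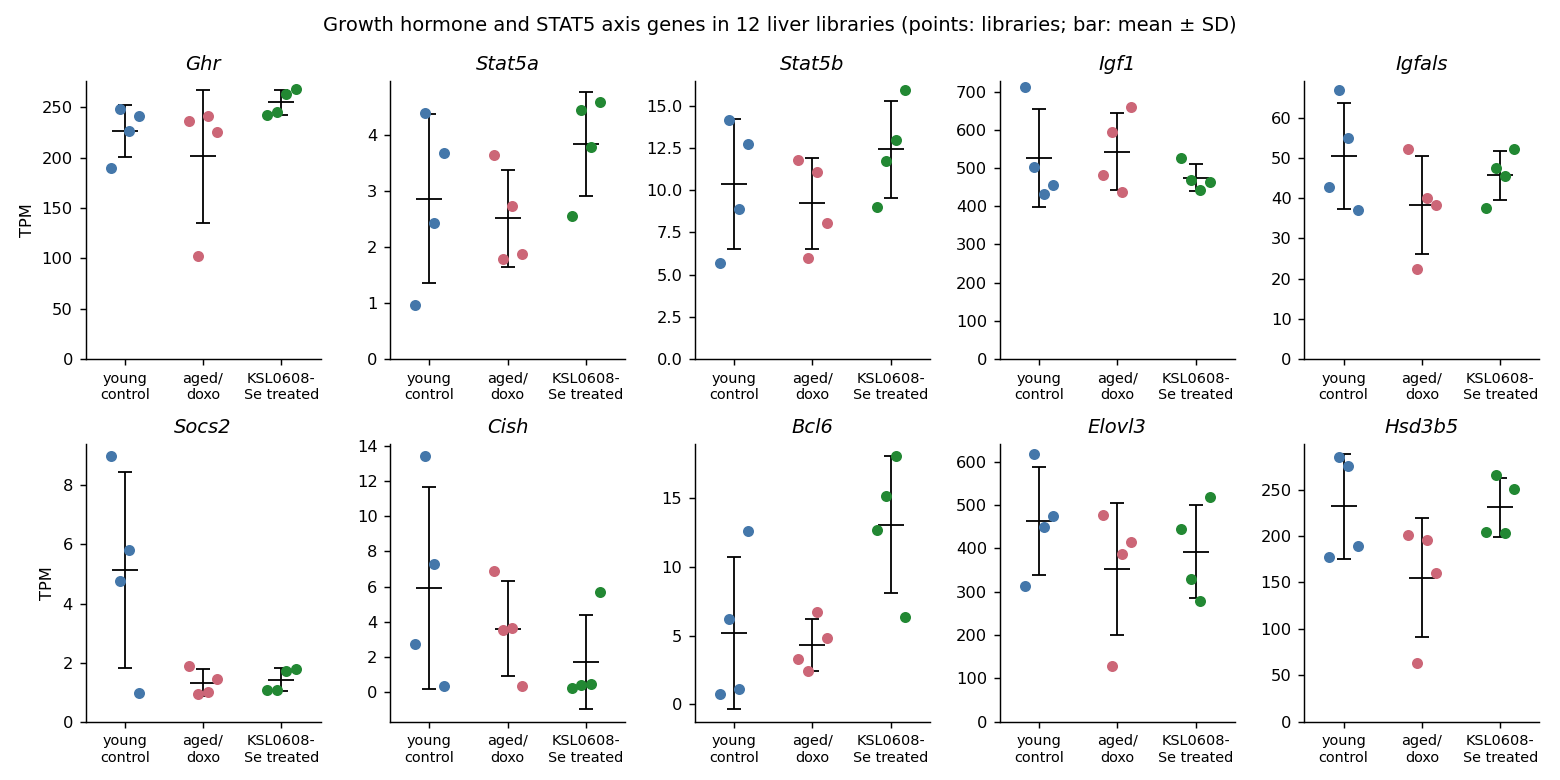
Levels of the 10 genes in TPM (vertical axes, linear, 1 panel per gene) in young control, aged/doxo and treated livers; dots are the 4 libraries of each group and bars give the mean and SD. Socs2 lies between 4.75 and 9 TPM in 3 of 4 young control libraries and at or below 1.90 TPM in all others.

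The receptor gene Ghr was abundant in all groups, and Stat5b exceeded Stat5a in every library. The 3 genes shared their highest group mean, the treated one, but no difference passed the threshold in any comparison. Most genes leaned the same way, as 81.0% of all genes had positive estimates for treated minus aged/doxo and 84.0% for treated minus young control. Ghr, the growth hormone receptor gene (chromosome 15, 3317760 to 3583492, minus strand, GRCm38), was at 190.0, 249, 226 and 241 TPM in young control libraries 1 to 4, at 236, 103, 241 and 225 TPM in aged/doxo libraries, and at 242, 246, 263 and 268 TPM in treated libraries. Aged/doxo library 2 was the lowest of the 12, and the treated libraries all lay above the aged/doxo libraries, by a margin of 242.36 over 241.41 TPM. The means were 227 ± 26.2, 201 ± 66.3 and 255 ± 12.7 TPM (SD, n = 4 each). On the log2(TPM + 1) scale the differences fitted by limma were -0.24 for aged/doxo minus young control, 0.42 for treated minus aged/doxo (adjusted p = 0.427) and 0.17 for treated minus young control. Without aged/doxo library 2 and young control library 1 the second of these was 0.12. With libraries rescaled by the median of ratios, treated minus aged/doxo was 0.04 and treated minus young control was -0.11.

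Stat5a and Stat5b encode the closely related transcription factors that carry the signal, and their genes lie 8626 bases apart on chromosome 11, at 100859351 to 100885169 on the plus strand and 100780731 to 100850724 on the minus strand. Stat5b was at 5.69, 14.2, 8.89 and 12.8 TPM in young control, 11.8, 5.96, 11.1 and 8.06 TPM in aged/doxo, and 9.01, 11.7, 13.0 and 15.95 TPM in treated libraries. Stat5a was at 0.96, 4.39, 2.42 and 3.68 TPM, then 3.64, 1.79, 2.73 and 1.87 TPM, then 2.55, 4.45, 3.78 and 4.58 TPM in the same order. Young control library 1 was lowest for both, and all groups overlapped. The ratio of Stat5b to Stat5a ranged from 2.64 to 5.93 across libraries. Fitted differences were between -0.13 and 0.41 for Stat5b and between -0.07 and 0.47 for Stat5a on the log2 scale. Of the 50-base windows of their annotated exons, 8.21% of those of Stat5a and 10.99% of those of Stat5b occur in the other gene, and Stat5a overlaps Stat3 on the opposite strand. The split of reads between these genes is therefore uncertain.

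Among the circulating effectors, Igf1 showed the smallest within-group scatter of the 10 genes on the TPM scale. That of Igfals was near the median of all genes, and no comparison separated the group means of Igf1 or Igfals. The small scatter of Igf1 depended on the scaling. With libraries rescaled by the median of ratios, Igf1 spanned 409 to 1067 in young control and 413 to 1039 in aged/doxo libraries. Ghr then spanned 212 to 285 and 179.5 to 238 in the same order. Igf1, the insulin-like growth factor that carries much of the growth signal into the circulation (chromosome 10, 87858265 to 87937042, plus strand), was at 712, 502, 432 and 456 TPM in young control, 482, 593, 437 and 659 TPM in aged/doxo, and 526, 468, 442 and 465 TPM in treated libraries. Young control 1, aged/doxo 4 and aged/doxo 2 were the 3 highest, the same libraries that had the steepest length slopes, and the role of that slope in the Igf1 level was not tested. Group means were 526 ± 128, 543 ± 101 and 475 ± 35.8 TPM (SD, n = 4 each), and limma's log2 differences were 0.06, -0.18 and -0.12 for aged/doxo minus young control, treated minus aged/doxo and treated minus young control.

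Igfals encodes the acid-labile subunit that holds IGF1 in its long-lived serum complex (chromosome 17, 24865997 to 24882010, plus strand). It was at 42.8, 66.8, 54.9 and 37.1 TPM in young control, 52.2, 22.5, 39.9 and 38.2 TPM in aged/doxo, and 37.6, 47.4, 45.6 and 52.2 TPM in treated libraries. Aged/doxo library 2 was lowest and the groups overlapped, with means of 50.4 ± 13.2, 38.2 ± 12.2 and 45.7 ± 6.05 TPM (SD, n = 4 each). The fitted log2 differences, in the same order as for Igf1, were -0.41, 0.30 and -0.11. Across the 12 libraries the relation of Igf1 to Ghr and to Igfals passed no test, and its sign depended on the scaling. Pearson's r of log2(TPM + 1) was -0.52 between Igf1 and Ghr (permutation p = 0.0935, adjusted over 4 pairs 0.125, Spearman's rho -0.45, permutation p = 0.147, adjusted 0.196). Between Igf1 and Igfals it was -0.40 (permutation p = 0.205, adjusted 0.205, rho -0.31, permutation p = 0.321, adjusted 0.321). Without the 2 libraries farthest from the Igf1 median, young control 1 and aged/doxo 4, r was -0.76 and -0.58, and with group means removed it was -0.44 and -0.38. With median-of-ratios scaling r was 0.24 for Igf1 and Ghr and 0.32 for Igf1 and Igfals, and with quantile normalization the latter was 0.18.

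The feedback inhibitor gene Cish and the repressor gene Bcl6 varied widely between libraries of a group, and the feedback inhibitor gene Socs2 did so in young control. Only Socs2 and Bcl6, of the 10 genes, had differences below an unadjusted p of 0.05 in the main limma fit. Socs2, which encodes an inhibitor that turns off receptor signalling and marks the receptor for degradation (chromosome 10, 95385362 to 95417180, minus strand), had its highest group mean in young control. It was at 9, 4.75, 5.81 and 0.96 TPM there, at 1.90, 0.94, 1.00 and 1.45 TPM in aged/doxo, and at 1.07, 1.09, 1.73 and 1.78 TPM in treated libraries. In young control, 3 libraries stood above all 8 of the others, and library 4 lay among them, so the groups overlapped. The means were 5.13 ± 3.32, 1.32 ± 0.447 and 1.42 ± 0.390 TPM (SD, n = 4 each). By limma the log2 difference was -1.20 with an SE of 0.39 for aged/doxo minus young control (95% interval -2.04 to -0.36, adjusted p = 1) and -1.14 with an SE of 0.39 for treated minus young control (interval -1.98 to -0.29, adjusted p = 0.734). These comparisons share the young control libraries. Leaving out young control library 4 gave -1.67 and -1.61, with limma adjusted p = 0.0542 and 0.0729, and leaving out young control library 1 gave -0.89 and -0.83. The remaining comparison, treated minus aged/doxo, gave 0.06.

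Cish encodes an SH2-domain inhibitor that competes with STAT5 for the receptor (chromosome 9, 107296026 to 107302784, plus strand). It was at 2.74, 13.4, 7.28 and 0.31 TPM in young control, 6.91, 3.54, 3.64 and 0.30 TPM in aged/doxo, and 0.20, 0.40, 0.44 and 5.68 TPM in treated libraries. Each group held both low and high values, with 5 libraries at 0.44 TPM or less, 7 at 2.74 TPM or more and none between. The highest level was 67.1 times the lowest over all libraries, and 43.3, 23.0 and 28.4 times within the 3 groups. Means of 5.94 ± 5.76, 3.60 ± 2.70 and 1.68 ± 2.67 TPM (SD, n = 4 each) differed by less than this spread. The fitted difference was -1.29 for treated minus young control (interval -2.95 to 0.36, limma adjusted p = 0.734), -0.94 for treated minus aged/doxo and -0.36 for aged/doxo minus young control. Because the levels of Cish lie in separate clusters, no correlation coefficient over all libraries is given for Socs2 and Cish. The pair is the fourth of the 4 adjusted together and did not pass (permutation test, adjusted p = 0.125 for Pearson's r and 0.158 for Spearman's rho).

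Bcl6, the repressor gene that STAT5 is known to hold down (chromosome 16, 23965052 to 23988852, minus strand), had its highest group mean in treated livers. It was at 0.78, 6.25, 1.14 and 12.6 TPM in young control, 3.27, 2.45, 6.70 and 4.84 TPM in aged/doxo, and 12.7, 15.2, 18.0 and 6.38 TPM in treated libraries. Treated libraries 1 to 3 were the highest of the 12, and treated library 4 lay below aged/doxo library 3 and young control library 4, so the groups overlapped. Group means were 5.19 ± 5.53, 4.32 ± 1.87 and 13.1 ± 4.97 TPM (SD, n = 4 each). The log2 difference by limma was 1.39 with an SE of 0.57 for treated minus aged/doxo (interval 0.16 to 2.62, adjusted p = 0.427) and 1.59 with an SE of 0.57 for treated minus young control (interval 0.36 to 2.82, adjusted p = 0.734). These comparisons share the treated libraries. For aged/doxo minus young control it was 0.20, and -0.23 without young control library 1. The mean TPM ran the other way, 4.32 against 5.19, so no direction is read for this comparison.

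Set beside each other, Cish and Bcl6 were high in different libraries. The 4 libraries with the most Bcl6, young control 4 and treated 1, 2 and 3 at 12.6 to 18.0 TPM, had Cish at 0.20 to 0.44 TPM. In the other 8 libraries Bcl6 did not exceed 6.70 TPM, and Cish was at 2.74 TPM or more in 7 of them, the exception being aged/doxo 4 with Cish at 0.30 TPM and Bcl6 at 4.84 TPM. The same young control 4 was the library whose Socs2 lay with the other groups. This pattern was noticed in the data, crosses the group labels and was given no test.

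**Figure D2:**
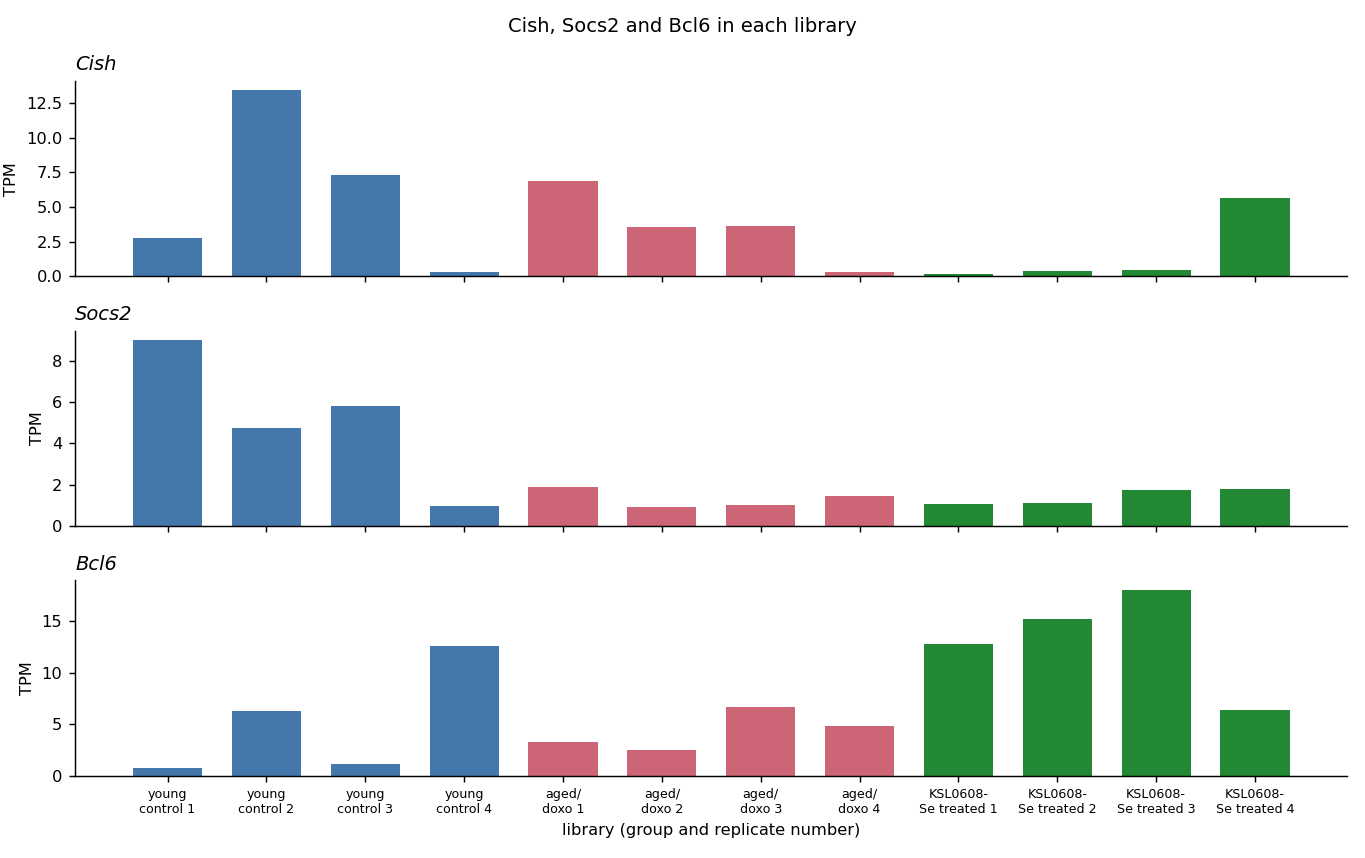
Bars give the TPM of Cish, Socs2 and Bcl6 (1 panel each, axes from 0) in each of the 12 libraries, coloured by group. Cish is at 0.44 TPM or less in young control 4, aged/doxo 4 and treated 1 to 3, while Bcl6 exceeds 12 TPM in young control 4 and treated 1 to 3.

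Elovl3 and Hsd3b5, the targets known for male bias, were abundant in all libraries and lowest in aged/doxo library 2, and neither passed the threshold. Elovl3, a fatty acid elongase gene (chromosome 19, 46131897 to 46135694, plus strand), was at 313, 617, 450.1 and 475 TPM in young control, 477, 130, 387 and 416 TPM in aged/doxo, and 444, 330.4, 279 and 518 TPM in treated libraries. The groups overlapped, with means of 464 ± 125, 352 ± 153 and 393 ± 108 TPM (SD, n = 4 each), and log2 differences of -0.51, 0.27 and -0.24 in the order used above. Without aged/doxo library 2 the differences involving that group were -0.08 from young control and -0.16 for treated minus aged/doxo.

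Hsd3b5, a hydroxysteroid dehydrogenase gene of male liver (chromosome 3, 98618634 to 98630252, minus strand), was at 178, 285, 275 and 190 TPM in young control, 201, 63.4, 196 and 161 TPM in aged/doxo, and 204, 265, 203 and 251 TPM in treated libraries. All treated libraries lay above all aged/doxo libraries, by 203.1 over 201.38 TPM, while young control overlapped both. The means were 232 ± 56.2, 155 ± 63.8 and 231 ± 32.0 TPM (SD, n = 4 each). By limma the difference was -0.68 with an SE of 0.33 for aged/doxo minus young control (interval -1.40 to 0.04, adjusted p = 1) and 0.69 for treated minus aged/doxo (interval -0.03 to 1.41, adjusted p = 0.427), which share the aged/doxo libraries. Without aged/doxo library 2 these were -0.29 and 0.31. Treated minus young control gave 0.01. Of the 50-base windows in the exons of Hsd3b5, 21.2% also occur in another gene, most of them in Gm10681, so its level may include reads of a near copy.

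Elovl3 and Hsd3b5 were correlated over the 12 libraries by Pearson's r of 0.84 (permutation p = 0.0102, adjusted over 4 pairs 0.0409), while Spearman's rho was 0.54 (permutation p = 0.0728, adjusted 0.158). The relation rests on aged/doxo library 2, without which r was 0.38. Without both aged/doxo 2 and treated 3, the libraries farthest from the Elovl3 median, r was 0.40. With group means removed over all 12 libraries it was 0.86. The pair did not pass with median-of-ratios scaling or quantile normalization.

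None of the 10 genes passed an adjusted p of 0.05 in any of the 3 comparisons. Where an unadjusted p was under 0.05 in the main limma fit, the gene was Socs2 or Bcl6. In aged/doxo minus young control 0 of 10 were called by limma (background 0.00919% of 10883 genes), and 1 had an unadjusted p under 0.05. In treated minus aged/doxo 0 of 10 were called (background 0.00919%), again with 1 such p, and in treated minus young control 0 of 10 (background 0.0276%), with 2. Over all genes, an unadjusted p under 0.05 was reached by 1.98%, 4.77% and 3.40% of genes in the 3 comparisons. Counted instead by groups that do not overlap, aged/doxo minus young control had 0 members (background 1.00%), treated minus aged/doxo had Ghr and Hsd3b5 (background 3.13%) and treated minus young control had 0 (background 4.02%). With libraries rescaled by the median of ratios, Ghr spanned 212 to 233 in treated and 179.5 to 238 in aged/doxo libraries, and Hsd3b5 164 to 230 and 111 to 188, so both overlapped.

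The median log2 difference of the 10 genes was -0.30 for aged/doxo minus young control, 0.36 for treated minus aged/doxo and -0.05 for treated minus young control. Over all 10883 genes the medians were -0.08, 0.30 and 0.23, and median-of-ratios scaling took these to 0.00. The members' median lay close to that of the whole table for treated minus aged/doxo and below it in the other comparisons. Positive estimates numbered 2, 8 and 5 of 10, where 35.2%, 81.0% and 84.0% of all genes had positive estimates. The count for aged/doxo minus young control depended on aged/doxo library 2. Without it Ghr (0.055), Stat5a (0.028) and Stat5b (0.045) turned positive and the other members kept their sign, where 74.8% of all genes were positive. The interval plot gives each estimate against the median of all genes.

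**Figure D3:**
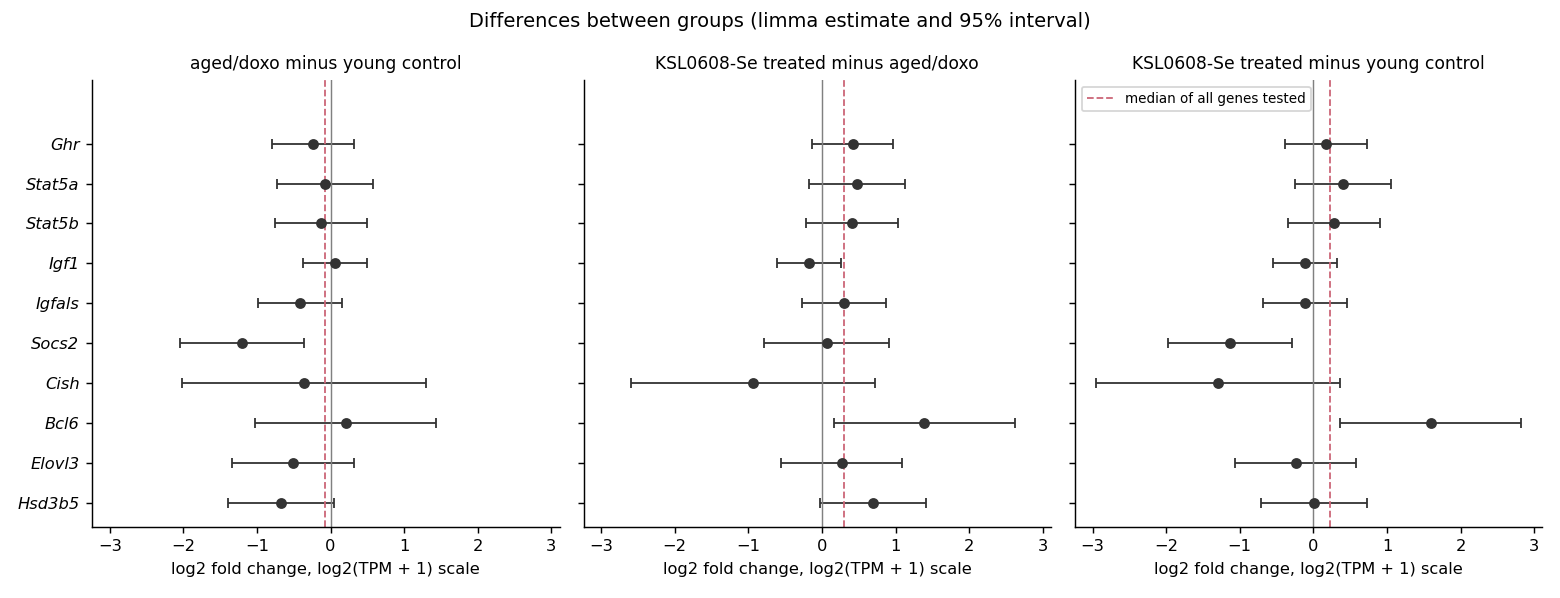
Log2 differences fitted by limma (horizontal axis, log2(TPM + 1) scale) for the 10 genes in the 3 comparisons, with 95% intervals and a dashed line at the median of all 10883 genes. Intervals that exclude 0 are those of Socs2 against young control in both comparisons and of Bcl6 in the treated group against both others.

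Cish and Bcl6 had the largest spread within groups among the 10 genes, and Socs2 followed through young control. The within-group SD of log2(TPM + 1) was 1.27 for Cish, 0.93 for Bcl6 and 0.62 for Socs2, against a median of 0.38 over all genes, and exceeded that of 97.9%, 95.7% and 85.7% of genes. Against genes of like mean level the percentiles were 97.1, 96.0 and 89.9. Elovl3 (0.60), Hsd3b5 (0.51), Stat5a (0.46) and Stat5b (0.43) lay above the median, and Igfals (0.37) and Ghr (0.36) just below it. Igf1 (0.25) exceeded 17.3% of all genes and 31.1% of genes of like mean level. These values are on the TPM scale, and Igf1 spread more widely with median-of-ratios scaling. For Socs2 the SD was 1.01 in young control but 0.27 in aged/doxo and 0.23 in treated livers, where several of the 10 genes varied more. The order is a description, because these percentiles carry no test.

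**Figure D4:**
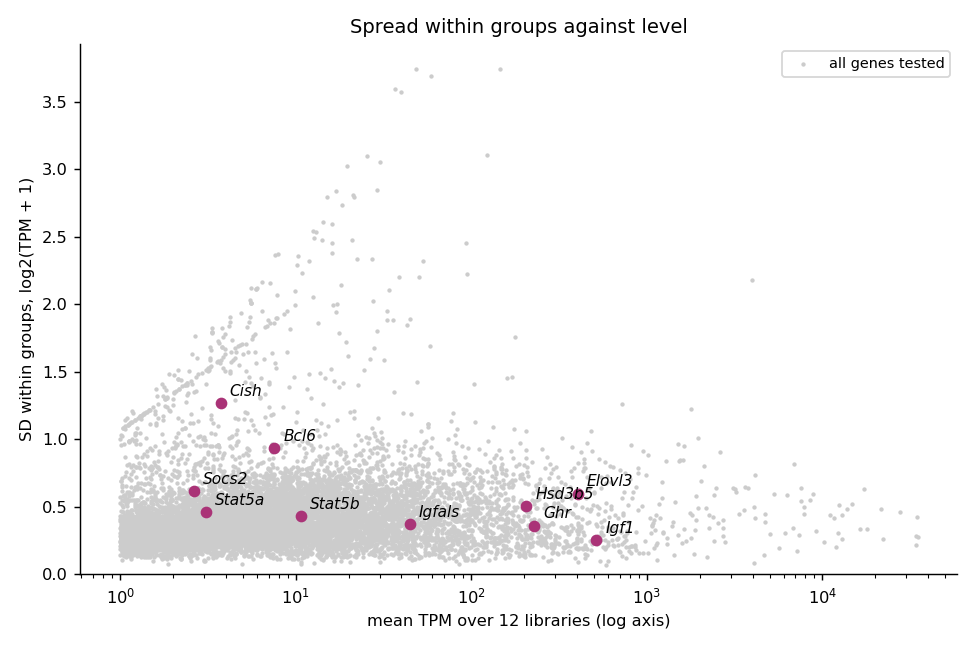
Within-group SD of log2(TPM + 1) (vertical axis) against mean TPM (horizontal axis, log scale) for all 10883 genes in grey and the 10 genes of the axis in purple. Cish at 1.27 and Bcl6 at 0.93 lie near the upper edge of genes of their level, and Igf1 at 0.25 exceeds 31.1% of genes of like mean level.

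Other genes of growth hormone signalling and the IGF system were taken from a list of 37, of which 27 were tested and 0 passed in either direction in the 3 comparisons. For aged/doxo minus young control the list median was -0.04, with 12 positive and 15 negative estimates, and without aged/doxo library 2 there were 24 and 3, where 74.8% of all genes were positive. The smallest p was that of Igfbp5, an IGF-binding protein gene, at 0.578 ± 0.200 TPM in young control and 1.56 ± 0.341 TPM in aged/doxo livers (SD, n = 4 each), with a log2 difference of 0.70 and limma adjusted p = 1. Igfbp6 (0.70), Socs3 (0.68), a feedback inhibitor induced by cytokines, and the phosphatase gene Ptpn2 (-0.30) followed. Igfbp5 and Igfbp6 averaged only 1.06 and 1.205 TPM over all libraries, close to the 1 TPM needed for testing. Igfbp6 was at 0.79 TPM in young control and 1.83 TPM in aged/doxo livers. The entry of both genes thus rested largely on aged/doxo, the group in which they were higher. For treated minus aged/doxo the median was 0.38 beside 0.30 over all genes, with 22 positive and 5 negative estimates, where 81.0% of all genes were positive. The leading genes were 3 tyrosine phosphatase genes, Ptpn2 (0.50), Ptpn1 (1.04) and Ptpn11 (0.87), and the insulin receptor gene Insr (0.53), each at limma adjusted p = 0.427.

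In treated minus young control the same list had a median of 0.36 beside 0.23 over all genes, and 24 positive and 3 negative estimates, where 84.0% of all genes were positive. Igfbp1, a binding protein gene that liver induces when insulin is low, was at 1.34, 6.90, 7.04 and 3.02 TPM in young control, 16.7, 0.97, 13.98 and 8.86 TPM in aged/doxo, and 8.85, 31.7, 11.75 and 20.7 TPM in treated libraries. All treated libraries lay above all young control libraries, where 4.02% of all genes had groups that did not overlap in this comparison. The log2 difference was 1.81 with an SE of 0.65 (limma adjusted p = 0.734). Insr (0.44), Igfbp5 (0.36) and Ptpn1 (0.73) had the next smallest p values.

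Of 27 other genes listed for male-biased, growth-hormone-dependent expression, 26 were in the table and all 26 were tested, with 0 passing in any comparison. In aged/doxo minus young control 23 of 26 estimates were negative and 3 positive, where 35.2% of all genes were positive. The median was -0.40 beside -0.08 over all genes, and 6 had an unadjusted p under 0.05. Of the 26 genes, 20 were lowest of the 12 libraries in aged/doxo library 2, the library with 27.6% mitochondrially encoded transcripts. So were 15 of the 27 signalling and IGF genes tested above and 3 of the 8 female-biased genes tested below. The share over all genes was not counted, so the 20 are not read as particular to this list. Without aged/doxo library 2, 19 of the 26 were negative and 7 positive, with a median of -0.17 beside 0.10 over all genes. The 4 of smallest p were the carboxylesterase gene Ces4a (-0.81), the glucuronosyltransferase gene Ugt2b38 (-1.56), the monooxygenase-like gene Moxd1 (-2.22) and the peroxisomal hydrolase gene Nudt7 (-0.80), each with limma adjusted p = 1. Ces4a averaged 2.01, 0.70 and 0.855 TPM in young control, aged/doxo and treated livers. It therefore entered the tests only through young control, the group in which it was higher. Moxd1 was at 6.09, 26.95, 9.66 and 1.31 TPM in young control, 3.39, 0.05, 0.96 and 0.15 TPM in aged/doxo, and 1.51, 0.29, 3.79 and 0.13 TPM in treated libraries. Young control library 4 was the lowest of its group and overlapped the others. Nudt7 was at 143 TPM in aged/doxo library 2, against 307 to 396 TPM in the rest of that group and 383 to 611 TPM in young control.

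Among the same genes, treated minus aged/doxo gave 21 positive and 5 negative estimates, where 81.0% of all genes were positive, with a median of 0.27, near the 0.30 of all genes. Without aged/doxo library 2 the median was 0.05 beside 0.13. Its smallest p values were those of Nat8f5 (-0.60), the glutathione transferase gene Gstp1 (-0.46), the fatty acid hydroxylase gene Cyp4a12b (0.70) and the acyl-CoA synthetase gene Acsm3 (0.58). In treated minus young control, 10 were positive and 16 negative, where 84.0% of all genes were positive, with a median of -0.03 beside 0.23, led by Gstp1 (-0.62), Ces4a (-0.68), Moxd1 (-2.03) and Ugt2b38 (-0.98). Gstp1 averaged 5911 ± 1301 TPM in young control, 5214 ± 475 TPM in aged/doxo and 3872 ± 997 TPM in treated livers (SD, n = 4 each).

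Genes known for female-biased expression were mostly near background in these livers, with 8 of 28 reaching the mean of 1 TPM needed for testing, and 0 passed in any comparison. Medians were 0.25, 0.01 and 0.29 in the order used above, beside -0.08, 0.30 and 0.23 over all genes. Positive estimates numbered 5, 4 and 5 of 8, where 35.2%, 81.0% and 84.0% of all genes were positive. Without aged/doxo library 2 the median for treated minus aged/doxo was -0.16 beside 0.13 over all genes. For aged/doxo minus young control the smallest p values were those of Fmo2 (0.59), a flavin monooxygenase gene, and of the cytochrome P450 genes Cyp2a4 (0.70), Cyp2c69 (-0.55) and Cyp2b9 (0.44). For treated minus aged/doxo they were those of Cyp17a1 (0.51), Cyp2b9 (0.74), Fmo2 (-0.35) and Cyp4a10 (0.99). Cyp2b9 averaged 0.218 ± 0.267, 0.635 ± 0.215 and 2.21 ± 1.97 TPM (SD, n = 4 each) in young control, aged/doxo and treated livers. It led treated minus young control at 1.18 (limma adjusted p = 0.734), followed by Cyp2c40 (-0.61), Cyp4a10 (1.20) and Cyp2a4 (0.56). With a mean of 1.02 TPM over all libraries, Cyp2b9 entered the tests only through the treated group, where it was higher. Its treated libraries were at 0.70, 3.81, 4.01 and 0.32 TPM and overlapped young control, which reached 0.59 TPM. Cyp2a4, at 0.675 TPM in young control, likewise entered through the other groups.

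Likeness of other genes to a member was measured by Pearson's r of log2(TPM + 1) over all 12 libraries, for Igf1, Socs2 and Hsd3b5, and is a description because the libraries share their quality differences. Igf1 was most like Hsd3b1 (r = 0.89), Lpl, the lipoprotein lipase gene (0.88), and Pik3c2a, a lipid kinase gene (0.87). Socs2 was most like the major urinary protein genes Mup11 (0.88) and Mup1 (0.85), whose reads are hard to assign among near-identical copies, and the mitochondrial carrier gene Slc25a30 (0.85). Hsd3b5 was most like Egfr, the epidermal growth factor receptor gene, Drg2, a GTP-binding protein gene, and the carboxylesterase gene Ces3a, each at r = 0.96. All 3 were lowest in aged/doxo library 2, as Hsd3b5 was.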

How the data were processed

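RNA-seq of mouse liver gave 12 libraries, 4 in each of 3 groups. The authors deposited TPM values per gene, made with fastp, HISAT and RSEM per the submitters' processing notes, which give no versions. For genome build, annotation and strandedness the sources used here give nothing, so reads of genes that overlap on opposite strands cannot be told apart. TPM holds no record of sequencing depth, and counting intervals could not be given. Since each library is scaled to a constant total, abundant transcripts shift the rest.

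Values were taken as log2(TPM + 1) in 10883 genes whose mean reached 1 TPM. This scale understates changes of low genes. limma 3.58.1 (R 4.3.3) fitted group as the only term over all 12 libraries with a variance trend. Tests were two-sided and adjusted by Benjamini-Hochberg over all genes, with a threshold of 0.05. Correlations of 4 gene pairs used permutation tests with 100000 resamples (Python 3.11.15, scipy 1.17.1). Gene positions are those of GENCODE M21 (GRCm38), matched by gene identifier, and promoter windows are RefSeq's on GRCm38.p6.

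The members, gene lists, pairs and tests were chosen with earlier results of these data known. All 10 members are named, with up to 4 genes of smallest p per list and comparison and, for Igf1, Socs2 and Hsd3b5, the 3 genes of highest r. Alternatives covered the pseudocount, the filter, scaling, a replicate block, array weights, a length covariate, fits of the compared groups alone, and leaving out libraries. List counts without the libraries that stand apart were added after seeing the data.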

Additional observations from a re-analysis of the deposited data

Results flagged for a closer look

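Among 30 sets of 4 libraries (10 genes in 3 groups), 2 held a library far from the other 3 by Dixon's criterion, which chance alone meets in about 1 of 20 sets. Ghr was at 102.53 TPM in aged/doxo library 2, against 225.29 to 241.41 TPM in the rest of its group. That library also had 27.6% mitochondrially encoded transcripts and the lowest hepatocyte marker sum, and the part of these in its Ghr level was not tested. Cish was at 5.68 TPM in treated library 4, against 0.20 to 0.44 TPM in the rest of its group. In the same library Bcl6 was at 6.38 TPM, the lowest of the treated libraries.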

How the results depend on the processing

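By limma, 0 members were called under every alternative run, and 0 to 3 had an unadjusted p under 0.05. Of 681 member values under alternatives, 58 changed sign, 25 of them on leaving out a library, and the cause was not tested. For aged/doxo minus young control (log2 differences), array weights gave Ghr 0.040, Igf1 -0.0097 and Stat5b 0.077, the length covariate gave Igf1 -0.019, Stat5a 0.10 and Stat5b 0.037, and median-of-ratios scaling gave Stat5a 0.022. Leaving out young control 1 and aged/doxo 2 together gave Bcl6 -0.045. For treated minus aged/doxo, array weights gave Igf1 0.037 and Elovl3 -0.11, and the length covariate gave Igf1 0.053, Igfals -0.055, Stat5a -0.052, Stat5b -0.088 and Elovl3 -0.16. Median-of-ratios scaling gave Igfals -0.067, Socs2 -0.15 and Elovl3 -0.11, quantile normalization gave Igfals -0.00098 and Socs2 -0.14, and leaving out both libraries gave Socs2 -0.017 and Elovl3 -0.16. For treated minus young control, median-of-ratios scaling gave Ghr -0.11 and Hsd3b5 -0.27, quantile normalization gave Hsd3b5 -0.14, and array weights gave Igf1 0.027 and Hsd3b5 -0.078. The length covariate gave Ghr -0.0069, Igf1 0.034, Stat5b -0.051 and Hsd3b5 -0.27, and leaving out both libraries gave Igf1 0.036 and Hsd3b5 -0.10.

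On leaving out each library in turn, aged/doxo minus young control ran from -0.35 to 0.055 for Ghr, -0.043 to 0.21 for Igf1, -0.99 to 0.16 for Cish, -0.36 to 0.12 for Stat5a, -0.36 to 0.045 for Stat5b and -0.23 to 0.75 for Bcl6. Treated minus aged/doxo ran from -0.017 to 0.18 for Socs2 and -0.16 to 0.47 for Elovl3. Treated minus young control ran from -0.20 to 0.036 for Igf1, -0.24 to 0.032 for Igfals and -0.10 to 0.12 for Hsd3b5.

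Of the 4 gene pairs, 1 passed, against 0 with median-of-ratios scaling or quantile normalization and 0 to 2 on leaving out each library. Median-of-ratios scaling turned r to 0.24 for Igf1 and Ghr and to 0.32 for Igf1 and Igfals, which was 0.18 with quantile normalization. Array weights called 74, 77 and 29 genes in the 3 comparisons against 1, 1 and 3, and the replicate block called 0, 0 and 1. With the replicate block, aged/doxo minus young control remained -1.20 for Socs2 and 0 members were called. Same-numbered libraries correlated at -0.58 to 0.39, and 4 of 24 combinations were best with their own number, so the numbers were not taken to pair libraries.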

Other observations

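The gene most like Igf1 across libraries was looked at after its values were seen. Hsd3b1, a hydroxysteroid dehydrogenase gene of the Hsd3b5 family, was at 76.4, 0, 0 and 4.99 TPM in young control, 0, 58.5, 0.03 and 44.4 TPM in aged/doxo, and 18.45, 0, 0 and 0 TPM in treated libraries, and so was listed at 0 in 6 of 12. Hsd3b3, another gene of that family, was at 29.8, 233, 211 and 177 TPM in young control, 202, 9.18, 207 and 126 TPM in aged/doxo, and 139, 219.6, 215 and 272 TPM in treated libraries. The pair of libraries with the most Hsd3b1, young control 1 and aged/doxo 2, had the least Hsd3b3 and also the steepest length slopes. Of the 50-base windows of Hsd3b1, 1.03% occur in Hsd3b3 and 0.054% in Hsd3b5.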
